A study of Mus musculus with 4 samples.

Results

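The genes described here are Met and 7 genes near it on mouse chromosome 6, namely Foxp2, Tes, Cav2, Cav1, Capza2, St7 and Aass, 8 of the 27998 genes listed in all 4 libraries. They were picked because their levels stood out in these same libraries, so what follows is a description, with no test of whether they differ. Met encodes a receptor tyrosine kinase at the cell surface whose ligand is hepatocyte growth factor, the product of Hgf. When bound it recruits adaptors such as Gab1 and Grb2 and signals to growth and motility. In the mammary gland Hgf comes mainly from the stroma, and Met on epithelial cells takes part in the branching of the ducts. Tumours are known that carry extra copies of the Met region, and genes that lie on such a stretch of DNA can be over-represented in RNA together. DNA was not measured here, so copy number was not tested.

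The study followed mammary cells of female Trp53 L/L;Brca1 L/L;R26Y mice on a mixed genetic background, labelled Trp53/Brca1-null in every library. An adenovirus carrying Cre under K8 control (Ad-K8-Cre), where K8 stands for the luminal keratin gene Krt8, was injected into the ducts, and the R26Y reporter gives YFP in cells that have recombined. The 4 single-cell RNA libraries held sorted YFP+ mammary epithelial cells about 2 weeks after injection, YFP+ epithelial cells with CD45+ leukocytes about 5 months after injection, and live (DAPI-) cells of tumour 1 and of tumour 2. Each time point was 1 library and each tumour 1 library, none is labelled as without Cre, and the number of mice behind a library is not given in the sources used here. Which exons of Trp53 and Brca1 are deleted was not known, so 3' counts were not used to check the deletions.

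Barcodes, each standing for 1 droplet, were kept with at least 500 genes and at most 10% mitochondrial UMIs (unique molecular identifiers, the counted molecules). Keratin barcodes had at least 3 UMIs of Krt8 and Krt18 together and no UMI of Ptprc, the gene of the leukocyte antigen CD45. They numbered 1133 at 2 weeks, 431 at 5 months, 397 in tumour 1 and 415 in tumour 2, with median depths of 4163, 4550, 14704 and 8296 UMIs. Ptprc barcodes, with at least 1 Ptprc UMI, numbered 2348 at 5 months, 1518 in tumour 1 and 733 in tumour 2. The 7 at 2 weeks were too few to describe. A further 161 to 1889 barcodes per library fell in neither population. Pairs of libraries shared 2 to 16 barcode sequences. All 9 epithelial markers checked were detected in the keratin barcodes of every library, and their summed level was 6584 CPM (counts per 1e6 UMIs of the population) at 2 weeks, 7012 CPM at 5 months, 1727 CPM in tumour 1 and 4452 CPM in tumour 2. The summed level of 7 basal markers was 147 CPM at 2 weeks, 255 CPM at 5 months, 197 CPM in tumour 1 and 116 CPM in tumour 2. Of these, Krt14 was highest in tumour 1, with 41.3, 60.8, 174 and 27.2 CPM in the same order. Krt17, with 43.4, 79.9, 8.31 and 67.2 CPM, and Acta2, with 56.9, 77.6, 14.1 and 16.3 CPM, were instead lowest in tumour 1. Krt5 and Myh11 were at 0 in both tumours, and Oxtr and Trp63 had at most 12.6 CPM in keratin barcodes of any library.

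In the GRCm38 build, Met lies at chr6:17463800-17573980 on the plus strand. Tes (chr6:17065149-17105828), Cav2 (chr6:17281185-17289115) and Cav1 (chr6:17306335-17341452) precede it, and Capza2 (chr6:17636234-17666972) and St7 (chr6:17692933-17943025) follow it, all on the same strand. Foxp2 (chr6:14901349-15441977, plus strand) starts 2.56 Mb before Met, and Aass (chr6:23072173-23132986, minus strand) starts 5.61 Mb after it. The 8 genes are therefore not one another's nearest neighbours throughout, since 39 listed genes span the 8.23 Mb from Foxp2 to Aass. Predicted genes overlap Foxp2, Tes, Cav2, Cav1 and St7, on the opposite strand except at Foxp2 and for some at St7. Whether the counting used strand is not given in the sources used here, so reads of these genes and of opposite-strand partners may be mixed. Met, Capza2 and Aass overlap no listed gene.

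The 250 bases upstream of the RefSeq starts are shown for Met, Tes and Cav2, because Tes and Cav2 were the genes whose counts followed those of Met most closely across tumour 1 barcodes. The sequences are from RefSeq (GRCm38.p6), all on the plus strand, at chr6:17463707-17463956 for Met, chr6:17064899-17065148 for Tes and chr6:17280935-17281184 for Cav2. Capitals mark matches on either strand to the Sp1-type GC box GGGCGG and the AP-1 site TGANTCA.
Met: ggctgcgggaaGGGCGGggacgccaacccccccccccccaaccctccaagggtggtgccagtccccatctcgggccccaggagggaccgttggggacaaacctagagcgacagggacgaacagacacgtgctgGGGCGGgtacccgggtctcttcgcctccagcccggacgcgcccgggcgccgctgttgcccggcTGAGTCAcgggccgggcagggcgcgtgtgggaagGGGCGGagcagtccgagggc
Tes: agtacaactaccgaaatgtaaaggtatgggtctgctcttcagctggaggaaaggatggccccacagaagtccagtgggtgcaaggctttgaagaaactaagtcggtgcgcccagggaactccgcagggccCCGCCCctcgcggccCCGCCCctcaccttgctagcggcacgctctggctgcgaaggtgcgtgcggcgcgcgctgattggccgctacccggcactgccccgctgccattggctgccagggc
Cav2: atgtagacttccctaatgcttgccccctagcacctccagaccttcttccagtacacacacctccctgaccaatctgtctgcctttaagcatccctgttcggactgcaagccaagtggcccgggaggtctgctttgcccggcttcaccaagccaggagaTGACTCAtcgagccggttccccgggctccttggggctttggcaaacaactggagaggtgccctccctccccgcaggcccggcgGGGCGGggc
The Met window is 74.0% G or C and holds 3 GC boxes and 1 AP-1 match. The Tes window holds 2 GC boxes, and the Cav2 window holds 1 GC box and 1 AP-1 match. No matches overlap. Among the 7 genes with an entry (Foxp2 had none), the GC box was found for Cav1, Cav2, Met and Tes, the AP-1 letters for Cav2 and Met, and the TATA box letters TATAAA for Cav1 and St7. The GC box occurs in 32.7% of 32851 promoter windows of this length, the AP-1 letters in 6.75% and the TATA letters in 12.4%. No element was shared by all 7 genes among these 3 motifs.

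In keratin barcodes, all 8 genes were highest in tumour 1. Levels are given in CPM with 95% exact Poisson intervals that cover counting error only, since PCR, capture and mouse-to-mouse variation are not in them. Met had 24.9 CPM (20.8 to 29.5) at 2 weeks, 45.3 CPM (36.8 to 55.3) at 5 months, 666 CPM (646 to 686) in tumour 1 and 19.4 CPM (15.3 to 24.3) in tumour 2. These rest on 132, 97, 4405 and 75 Met UMIs. Tumour 1 stood apart, the intervals at 2 weeks and in tumour 2 overlapped, and the 5-month level lay above both. Met was 34.3-fold higher in tumour 1 than in tumour 2 (27.3 to 43.7), 14.7-fold higher than at 5 months (12.0 to 18.1) and 26.8-fold higher than at 2 weeks (22.5 to 32.1). Averaged over both tumours, Met had 343 ± 457 CPM (SD, n = 2), so the spread between the tumours exceeded their mean.

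Tes encodes testin, a LIM-domain protein of focal adhesions. It had 97.1 CPM (88.9 to 106) at 2 weeks, 63.1 CPM (52.9 to 74.7) at 5 months, 2475 CPM (2437 to 2513) in tumour 1 and 106 CPM (95.8 to 117) in tumour 2. Its level in tumour 1 was 23.4-fold that in tumour 2 (21.2 to 25.9), while tumour 2 and 2 weeks had overlapping intervals.

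Cav1 and Cav2 encode caveolins, the proteins that shape the membrane pits called caveolae. Cav2 had 49.8 CPM (43.9 to 56.1) at 2 weeks, 43.5 CPM (35.1 to 53.3) at 5 months, 989 CPM (965 to 1013) in tumour 1 and 98.0 CPM (88.4 to 108) in tumour 2. Cav1 had 38.6 CPM (33.5 to 44.3) at 2 weeks, 4.67 CPM (2.24 to 8.60) at 5 months, 888 CPM (866 to 911) in tumour 1 and 39.8 CPM (33.8 to 46.6) in tumour 2. The 2 genes parted at 5 months, where Cav1 was at its lowest, with 10 UMIs in 431 barcodes, while the Cav2 intervals of 2 weeks and 5 months overlapped. Tumour 1 over tumour 2 was 22.3-fold for Cav1 (19.0 to 26.3) and 10.1-fold for Cav2 (9.10 to 11.2).

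Capza2 encodes an alpha subunit of the actin capping protein, which closes the growing ends of actin filaments. It had 140 CPM (130 to 150) at 2 weeks, 195 CPM (177 to 215) at 5 months, 3192 CPM (3149 to 3235) in tumour 1 and 316 CPM (298 to 334) in tumour 2. It was 10.1-fold higher in tumour 1 than in tumour 2 (9.54 to 10.7), and unlike Met it was also above both earlier time points in tumour 2. St7 (suppression of tumorigenicity) had 7.35 CPM at 2 weeks, 10.3 CPM at 5 months, 78.6 CPM (72.0 to 85.7) in tumour 1 and 11.1 CPM in tumour 2. The St7 intervals of the 3 lower libraries overlapped one another, and tumour 1 was 7.07-fold above tumour 2 (5.17 to 9.89).

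Foxp2 and Aass, the outermost of the 8, were near or at 0 outside tumour 1. Foxp2, a forkhead transcription factor, had 2 UMIs at 2 weeks, none at 5 months, 154 UMIs (23.3 CPM, 19.7 to 27.3) in tumour 1 and none in tumour 2. Against the level that 3 counts over the tumour 2 population would give, 0.776 CPM, it was at least 30.0-fold higher in tumour 1. Aass, the enzyme that begins the breakdown of lysine, had no UMI at 2 weeks, 9 UMIs (4.21 CPM) at 5 months, 179 UMIs (27.1 CPM, 23.2 to 31.3) in tumour 1 and 2 UMIs (0.517 CPM) in tumour 2. The ratio of tumour 1 to tumour 2 was 52.3 for Aass, with a counting interval of 14.3 to 435.

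**Figure D1:**
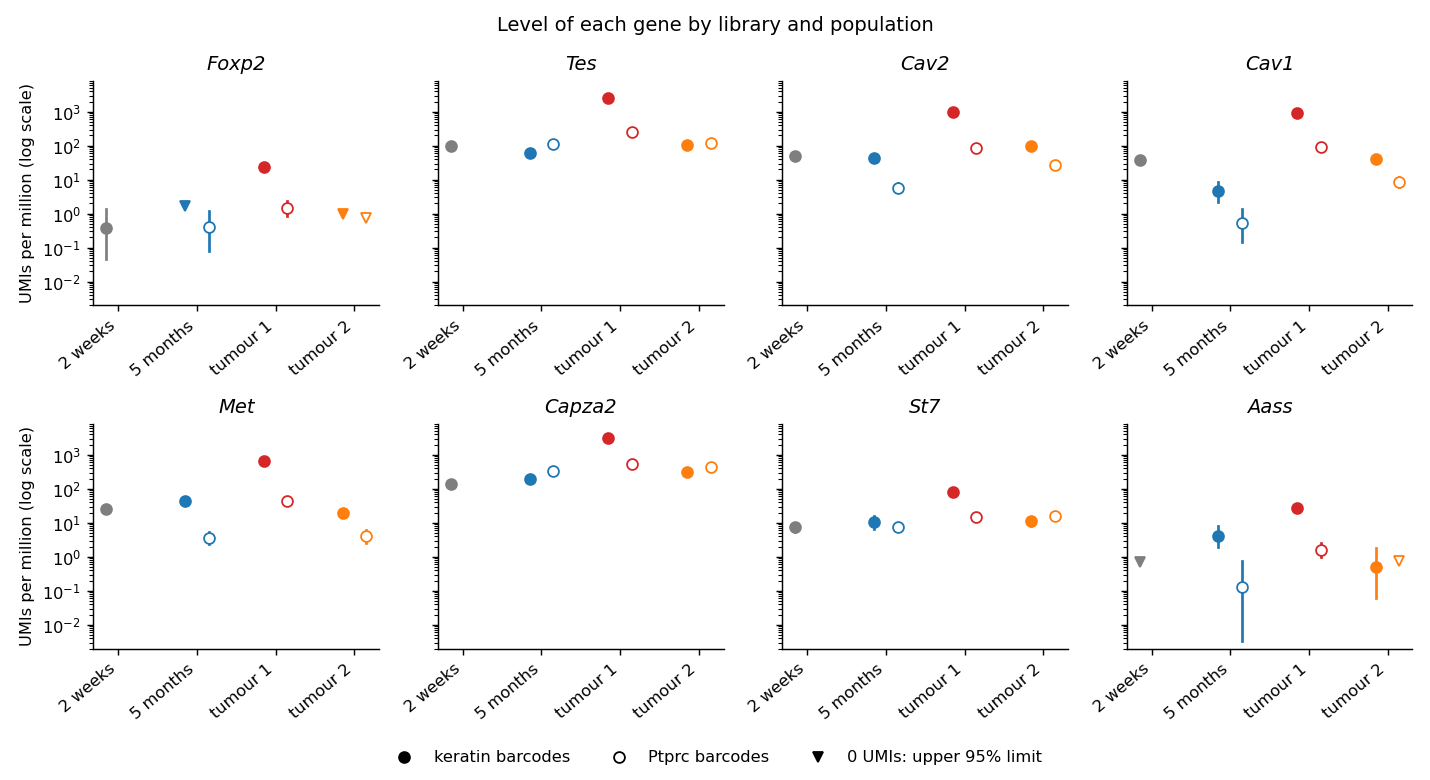
Level of each of the 8 genes in CPM on a log axis, by library, in keratin barcodes (filled) and Ptprc barcodes (open), with 95% Poisson intervals. Triangles give the upper limit where no UMI was counted. Every gene has its highest point in tumour 1 keratin barcodes, for example 666 for Met.

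A difference of at least 2-fold was counted after adding 1 CPM to both levels, among genes with at least 20 CPM in the higher of both populations. By that count, 8 of 8 genes were higher in tumour 1 than in tumour 2, where 9.07% of 5735 genes were. The same was so of 8 of 8 over 5 months (14.7% of all genes) and 8 of 8 over 2 weeks (15.5% of all genes). These are the differences the genes were chosen by, so the counts describe the choice. Foxp2, St7 and Aass reached 20 CPM only in tumour 1 and could pass only by being high there. The other 5 reached it without tumour 1, and all 5 were at least 2-fold higher in tumour 1 in each of the 3 comparisons, with median log2 ratios of 4.44 over tumour 2, 4.48 over 5 months and 4.50 over 2 weeks. The median over all genes in these comparisons was -0.08, 0.03 and -0.15. Met had a log2 ratio of 5.03 in tumour 1 over tumour 2 and was the seventh highest of 5735 genes, a rank that is descriptive.

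Tumour 2 showed no such pattern. Of the 5 genes with at least 20 CPM in tumour 2 or at 5 months, 2 were at least 2-fold higher in tumour 2 (11.7% of all genes were), namely Cav1 at 8.52-fold and Cav2 at 2.25-fold, the Cav2 call being lost with median-of-ratios scaling. Met alone of the 5 was at least 2-fold lower in tumour 2 than at 5 months, at a ratio of 0.428 (8.92% of all genes were lower), a call lost at a keratin limit of 10 UMIs. The ratios of tumour 2 to 2 weeks were 2.26 for Capza2, 1.97 for Cav2, 1.09 for Tes, 1.03 for Cav1 and 0.779 for Met. Between the earlier time points, 0 of 5 genes were at least 2-fold higher at 5 months than at 2 weeks (12.8% of all genes were), and 1 of 5 was lower, Cav1 with a log2 ratio of -2.80 (17.5% of all genes were lower). Met was 1.82-fold higher at 5 months than at 2 weeks.

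The excess was spread over nearly all tumour 1 keratin barcodes. Since those barcodes were deeper, each barcode was thinned to 2000 UMIs drawn at random, which left out 154 keratin barcodes at 2 weeks and 28 at 5 months, and none in the tumours. After thinning, at least 1 Met UMI was found in 4.19% of barcodes at 2 weeks, 9.43% at 5 months, 62.5% in tumour 1 (57.5 to 67.2, exact binomial interval) and 5.06% in tumour 2. Without thinning the shares were 9.53%, 18.8%, 94.7% and 16.1%. In Ptprc barcodes, mainly leukocytes, the thinned share was 0.482% at 5 months, 3.03% in tumour 1 and 0.819% in tumour 2. Median depth there was 2345.5, 6772.5 and 6024 UMIs before thinning, which left out 897 barcodes at 5 months. Each keratin share exceeded the Ptprc share of its own library, and only the tumour 1 keratin share was above 10% after thinning.

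The summed thinned UMIs of the 8 genes had a median of 1 at 2 weeks, 1 at 5 months, 13 in tumour 1 and 1 in tumour 2. In tumour 1 about 10% of barcodes had 6 or fewer and about 10% had 30 or more, and 393 of 397 had at least 1. Of the tumour 1 barcodes, 305 (76.8%) exceeded the highest barcode of tumour 2, which had 8, 365 (91.9%) exceeded the highest at 5 months, which had 5, and 349 (87.9%) exceeded the highest at 2 weeks, which had 6. Barcodes of 1 library share their source, so these shares describe the library. The 8 genes were chosen for their high levels in tumour 1, so the small overlap also describes the choice. Capza2 and Tes gave most of the tumour 1 sum, with thinned means of 6.38 and 4.55 of 15.9 UMIs. Cav1 was found in 43.6% and Foxp2 in 2.77% of the thinned tumour 1 keratin barcodes, so the sum does not stand for each gene.

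**Figure D2:**
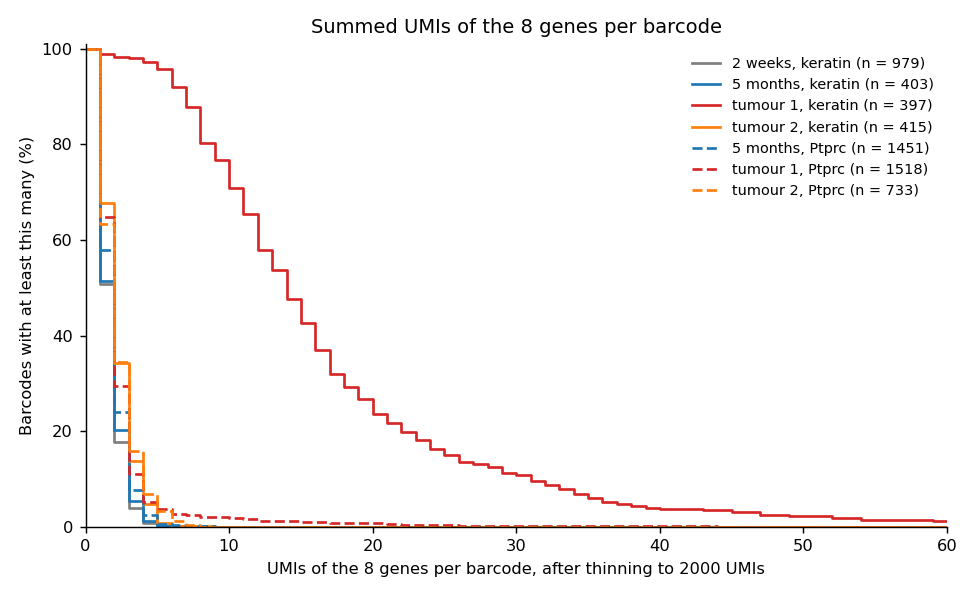
Share of barcodes (vertical, percent) with at least the number of summed UMIs of the 8 genes on the horizontal axis, after thinning to 2000 UMIs per barcode. Solid lines are keratin barcodes and dashed lines Ptprc barcodes. The tumour 1 keratin line has a median of 13 and lies far to the right of the others, whose medians for keratin barcodes are 1. The genes were chosen for their high levels in tumour 1.

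Keratin barcodes were not the only population of tumour 1 in which these genes were counted, but they held the high levels. In tumour 1, Met had 666 CPM in keratin barcodes, against 44.8 CPM (41.0 to 48.9) in Ptprc barcodes and 37.0 CPM in barcodes of neither population. The 8 genes were all at least 2-fold higher in keratin than in Ptprc barcodes of tumour 1 (21.1% of all genes were), with a median log2 ratio of 3.27 against 0.24 over all genes. Of the 2 populations, Foxp2, St7 and Aass reached 20 CPM only in the keratin barcodes and could pass only by being high there. The other 5 had log2 ratios from 2.55 (Capza2) to 3.86 (Met). Among the 4 genes with at least 20 CPM in either population of tumour 2, 2 were at least 2-fold higher in keratin barcodes (19.4% of all genes), Cav1 and Cav2. At 5 months 2 of 4 such genes were (20.5% of all genes), Met and Cav2. Capza2 and Tes were lower in keratin than in Ptprc barcodes of tumour 2 and of the 5-month library, with 316 against 434 CPM and 106 against 119 CPM in tumour 2.

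The Ptprc barcodes of tumour 1 had more of these genes than those of the other libraries, with 4 of 5 genes at least 2-fold higher than in tumour 2 (4.84% of all genes) and 4 of 5 higher than at 5 months (17.2% of all genes). Ptprc barcodes that also held keratin UMIs carried much of this. Among tumour 1 Ptprc barcodes, Met had 395 CPM (358 to 434) in the 62 with at least 3 keratin UMIs, 7.71 CPM in the 333 with 1 or 2 and 7.95 CPM (6.10 to 10.2) in the 1123 with none. Without the keratin-bearing barcodes, only Tes, Cav2 and Capza2 still reached 20 CPM. Tes and Capza2 were then not 2-fold higher in Ptprc barcodes of tumour 1 than of tumour 2 or of the 5-month library. Cav2 was not 2-fold higher than in tumour 2 but was more than 2-fold higher than at 5 months. No share of all genes is given for this subset, so these are levels of single genes. Capza2 had 346 CPM at 5 months, 371 CPM in tumour 1 and 446 CPM in tumour 2. Met and Cav1 then fell under the 20 CPM minimum but not to the levels of the other libraries. In Ptprc barcodes with no keratin UMI, Met had 2.13 CPM at 5 months, 7.95 CPM in tumour 1 and 2.60 CPM in tumour 2, and Cav1 had 0.152, 13.5 and 6.64 CPM in the same order. Cav2 had 3.35, 24.0 and 22.5 CPM, and Tes, at 115, 95.8 and 121 CPM, was lowest in tumour 1. In tumour 1 the Ptprc level as a percentage of the keratin level was 6.73 for Met, 10.4 for Tes, 8.87 for Cav2 and 10.5 for Cav1, beside 6.62 for Krt8 and 8.41 for the epithelial gene Epcam. In barcodes free of keratin UMIs these percentages were 1.19 for Met, 3.87 for Tes, 2.43 for Cav2, 1.52 for Cav1 and 3.75 for Epcam. Droplets with an epithelial cell and a leukocyte, and free RNA, were not called, and their part was not tested beyond these values.

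Met UMIs lay on both sides of the limits that define the populations. Among tumour 1 barcodes with no Ptprc UMI, the 14 with 3 or 4 keratin UMIs, just inside the keratin population, held 60 Met UMIs, and the 142 with 1 or 2, just outside it, held 119. In tumour 2 these classes held 1 Met UMI in 44 barcodes and 4 in 148. Among Ptprc barcodes of tumour 1, Met had 87.1 CPM in the 673 with exactly 1 Ptprc UMI and 11.6 CPM in the 845 with more.

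Other cell types were counted beside the keratin barcodes. The summed level of 7 fibroblast markers in keratin barcodes was 226 CPM at 2 weeks, 58.0 CPM at 5 months, 230 CPM in tumour 1 and 15.5 CPM in tumour 2. Dcn made up nearly all of the sum at 2 weeks, with 226 CPM, against 105 CPM in tumour 1. All 7 were detected in tumour 1, where Col1a1 had 38.9 CPM, and 4 of them (Col1a1, Col3a1, Pdgfra and Pdgfrb) were at 0 at 2 weeks. Their part in the levels of the 8 genes was not tested. An Epcam UMI was found in 95.4% of keratin barcodes at 2 weeks, 98.6% at 5 months, 86.9% in tumour 1 and 92.8% in tumour 2. The 345 tumour 1 keratin barcodes with Epcam had 693 CPM of Met and 701 CPM of Cav1, and the 52 without it had 485 CPM of Met and 2138 CPM of Cav1. The summed level of the 8 genes was 8334 CPM with Epcam and 8376 CPM without, so the total was alike while Cav1 took a larger share where Epcam was absent and Aass a smaller one, with 4.65 CPM.

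The high levels in tumour 1 reached beyond the 8 genes. Along chromosome 6, tested genes were followed outward from Met until 2 in a row were less than 2-fold higher in tumour 1 than in tumour 2, a rule set after the values had been seen. This gave a run of 25 tested genes over 12.8 Mb, from Ndufa4 at chr6:11900292-11907497, 5.56 Mb before Met, to Wasl at chr6:24613805-24665009, 7.15 Mb after it. Of these, 24 were at least 2-fold higher in tumour 1, with a median log2 ratio of 3.32, and the exception was Tspan12, a tetraspanin, at 0.52. On the rest of chromosome 6, 24 of 284 genes (8.45%) were that much higher and the median was -0.49. The run was drawn by this same ratio, so its count and its contrast with the rest follow largely from the rule. The first genes outside were Rpa3 at 0.50 and C1galt1 at 0.76 on one side, and Zfp800 at -0.15 and Arf5 at -0.28 on the other. Within the run, Gm20186 at 5.37 and Met at 5.03 were the highest, and the edge genes had 1.85 (Ndufa4) and 3.39 (Wasl).

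The run was also high against the libraries that the rule did not use. Over 5 months, 25 of 25 genes were at least 2-fold higher in tumour 1, beside 17.8% on the rest of chromosome 6 and 14.7% of all genes. Over 2 weeks, 24 of 25 were, beside 16.1% and 15.5%, the exception being Cadps2 at 0.97. Tumour 1 itself is shared by these comparisons, so they are not separate evidence. Of the 25, 16 reached 20 CPM without tumour 1, and the others could pass only by being high there. Of those 16, 15 were at least 2-fold higher than in tumour 2 (9.07% of all genes were), with a median of 3.33. The rule used that comparison, so this count describes the run. In tumour 2 over 2 weeks, the median of the 16 measured run genes was -0.02, beside 0.13 on the rest of the chromosome.

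**Figure D3:**
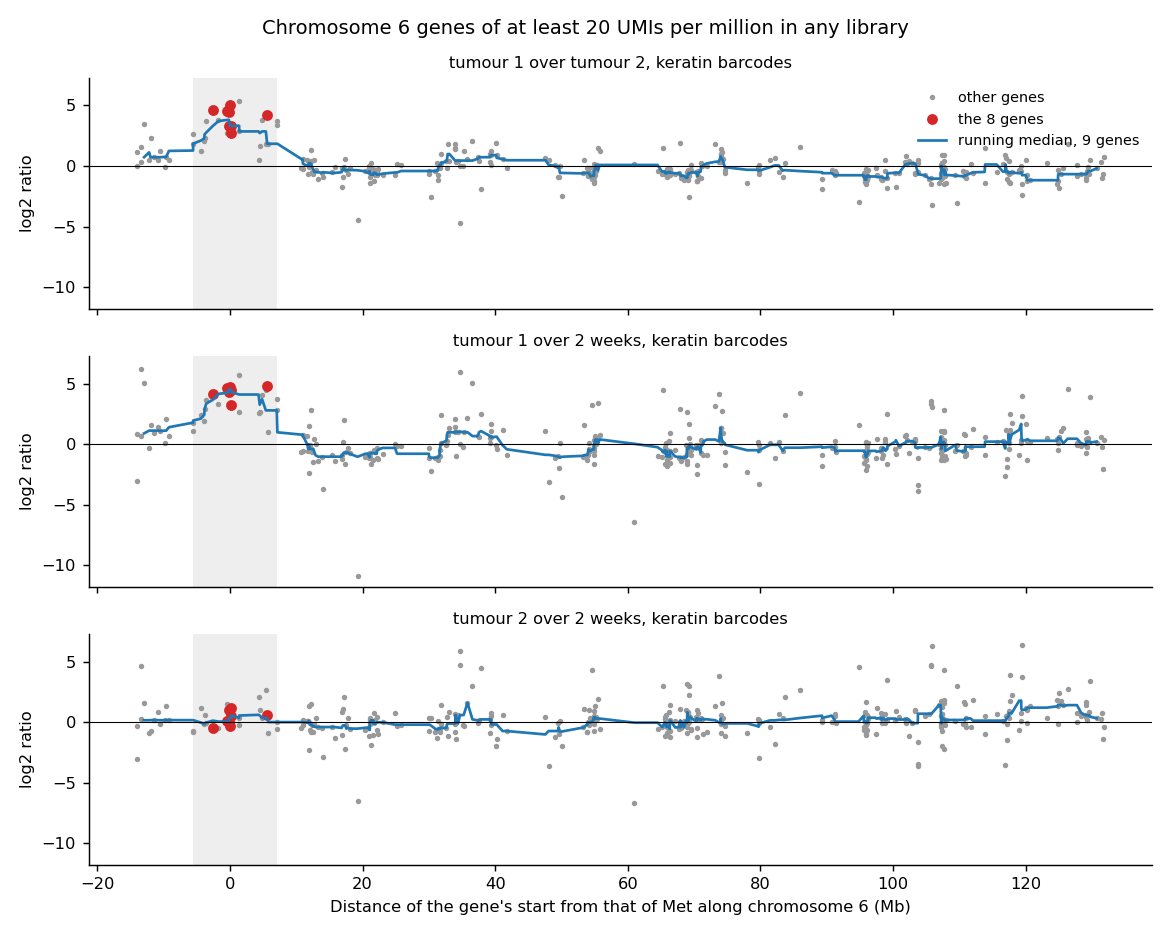
Log2 ratio of the level in keratin barcodes (vertical, 1 CPM added) for chromosome 6 genes by distance of their start from that of Met in Mb, with the running median of 9 genes as a line. The shaded stretch is the run from Ndufa4 to Wasl, where the line is raised in tumour 1 over tumour 2 and over 2 weeks, at 3.33 at Met in the first, and flat in tumour 2 over 2 weeks.

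Between Foxp2 and Aass, 8 further genes reached 20 CPM in some library. Fam3c, a secreted protein of the FAM3 family, had 70.9 CPM at 2 weeks, 315 CPM at 5 months, 1227 CPM in tumour 1 and 87.9 CPM in tumour 2. Lsm8, a subunit of the nuclear Lsm ring that binds U6 RNA, had 126 CPM at 2 weeks, 38.3 CPM at 5 months, 784 CPM in tumour 1 and 107 CPM in tumour 2. Mdfic, a protein with a MyoD family inhibitor domain, had 13.4, 14.0, 144 and 9.31 CPM in the same order. Of these 3, only Fam3c was at least 2-fold higher at 5 months than at 2 weeks. Gm20186, a predicted gene that starts beside Lsm8 on the other strand, had at most 0.935 CPM outside tumour 1 and 61.7 CPM in it. Gm4876, Ing3, Ptprz1 and Tspan12 had 28.6, 58.7, 34.0 and 54.3 CPM in tumour 1, and 3.36, 17.6, 8.79 and 37.5 CPM in tumour 2. All 8 were highest in tumour 1, and against tumour 2 the smallest log2 ratios were those of Tspan12 (0.52), Ing3 (1.68) and Ptprz1 (1.84).

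Other genes of the run differed in how far tumour 1 stood above the rest. Ndufa4, a mitochondrial protein gene at its first edge, had 1589 CPM at 2 weeks, 1205 CPM at 5 months, 3390 CPM in tumour 1 and 942 CPM in tumour 2, a log2 ratio of only 1.09 over 2 weeks. Ndufa5, of respiratory complex I, near the other edge, had 163 CPM at 2 weeks, 158 CPM at 5 months, 2124 CPM in tumour 1 and 163 CPM in tumour 2. Wasl, the actin nucleation factor N-WASP, had 76.7, 62.6, 531 and 49.9 CPM in the same order. The unnamed gene 2610001J05Rik, 3.60 Mb before Met, had 83.9, 69.2, 1078 and 81.5 CPM. For Ndufa5, Wasl and 2610001J05Rik the libraries other than tumour 1 lay within a narrow band.

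**Figure D4:**
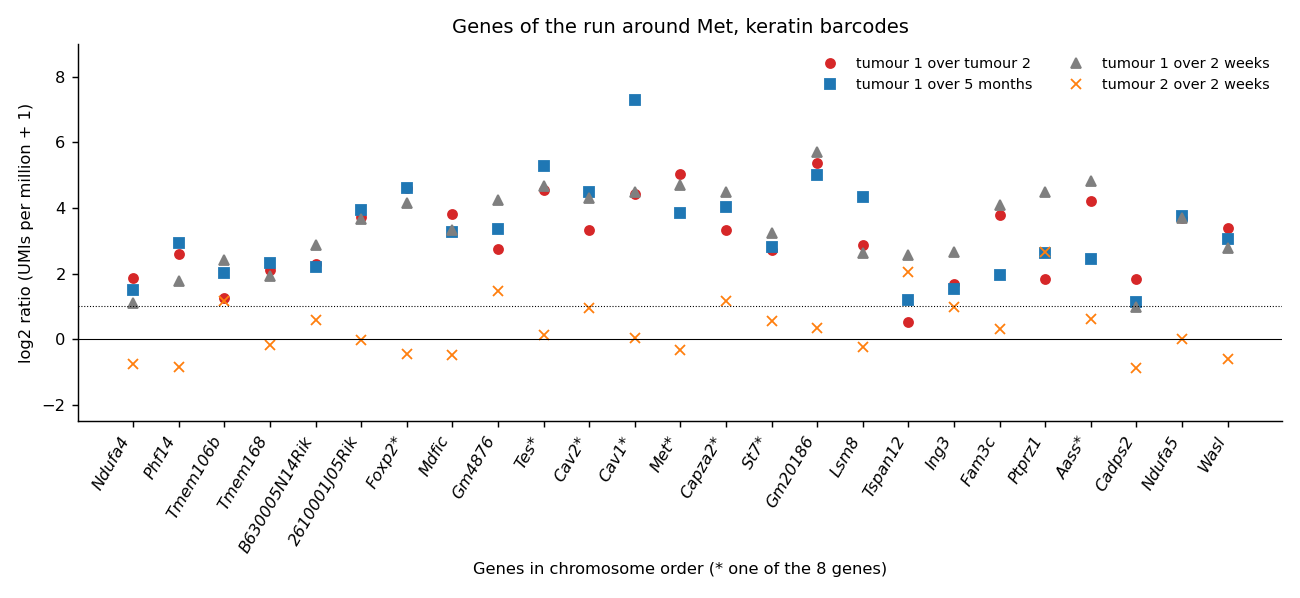
Log2 ratios (vertical, 1 CPM added) of the 25 genes of the run in chromosome order in keratin barcodes, with the 8 genes starred and the dotted line at 2-fold. Ratios of tumour 1 over tumour 2, 5 months and 2 weeks lie above the line for all but Tspan12 (0.52, over tumour 2) and Cadps2 (0.97, over 2 weeks), and most ratios of tumour 2 over 2 weeks lie near 0.

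Across all chromosomes, with genes in order and the median taken over every 9 neighbouring genes, the highest window that held Met ranked first of 5555 in tumour 1 over tumour 2, with a median log2 ratio of 3.81. It ranked first of 5607 over 5 months (4.32) and first of 5848 over 2 weeks (4.49). Windows overlap, and 17, 14 and 19 of the 20 highest in these 3 comparisons lay within 20 Mb of Met. The 8 genes were chosen by these differences, so the first ranks describe the choice. Each first-ranked window also holds genes that reached 20 CPM only in tumour 1. Over tumour 2 these were B630005N14Rik, Foxp2, Mdfic and Gm4876. In tumour 2 the highest window holding Met ranked 251 of 5527 over 5 months (0.74) and 2039 of 5857 over 2 weeks (0.12).

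Within tumour 1, the genes varied together from barcode to barcode, and not all in the same way. Spearman's rho of counts per 10000 UMIs was taken across the 397 keratin barcodes, which share a library and differ in depth. Of 8022 genes found in at least 10% of them, those closest to Met were Tes at 0.49, Cav2 at 0.32 and Capza2 at 0.31, all from the chosen 8, and the median over all genes was 0.04. Next came Lpgat1 at 0.31, Csn1s1, Nckap1 and Acsl4 at 0.29, Galnt1 at 0.28, Tnfrsf12a and 2610001J05Rik at 0.26. Foxp2 was thirteenth, at 0.26. Cav1 had 0.21, St7 0.16 and Aass 0.07. Ndufa5, although it too was far higher in tumour 1 than elsewhere, had a rho of -0.16 with Met, among the lowest of all genes.

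In tumour 2, with 415 barcodes and 6511 genes, the highest rho with Met was 0.24, for Exoc5, Mapk13 and Ric8, followed by Cd24a at 0.22. The rest of its first 10, Ywhah, Plet1, Lypd3, Pycrl, Zak and Arl6ip4, had 0.21 to 0.20. Tes had 0.02 there and Cav2 0.05. Met was found in few tumour 2 barcodes, and weak correlations in such sparse counts are no finding.

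Over the 28 pairs of the 8 genes, the median rho was 0.28 in tumour 1, from -0.23 to 0.62, and 0.01 at 2 weeks, 0.02 at 5 months and 0.01 in tumour 2, each over the 21 pairs that could be computed. The highest pair was Cav1 with Cav2, whose starts lie 0.03 Mb apart. In Ptprc barcodes of tumour 1 the median was 0.15, beside the mixture of keratin-bearing barcodes described above. Thinning all tumour 1 keratin barcodes to 2000 UMIs lowered the median to 0.10.

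Within tumour 1, some pairs of run genes went together and others went opposite ways, which 2 sets of genes, drawn up after the values had been seen, describe. The genes 2610001J05Rik, Foxp2, Tes, Cav2, Cav1, Met, Capza2 and St7 were positively related in 28 of 28 pairs. Their median rho was 0.32, with a range of 0.16 to 0.62. The set was drawn from these values, so the count describes the choice. It leaves out Mdfic and Gm4876, which start between Foxp2 and Tes. With the genes of the set, Mdfic had rho from -0.12 (Foxp2) to 0.12 (Cav1), and Gm4876 from 0.00 (Capza2) to 0.17 (Cav2). The other 17 genes of the run, Aass among them, were positively related in 119 of 136 pairs, with a median of 0.16. The highest of those pairs, at 0.62, was Lsm8 with Ndufa5, 5.67 Mb apart, and Ndufa4 with Ndufa5 had 0.49 although 12.62 Mb apart at the 2 ends of the run. Pairs with 1 gene from each set were negative in 98 of 136 cases, with a median of -0.06, reaching -0.46 for Foxp2 with Ndufa5 and -0.39 for Tes with Ndufa5. After thinning to 2000 UMIs the 3 medians were 0.15, 0.04 and -0.03, and among the 345 barcodes with Epcam they were 0.32, 0.15 and -0.09. In tumour 2 they were 0.03, 0.03 and 0.02. There, 84 of 136 pairs of the other run genes were positive, and 38 of 119 pairs with 1 gene from each set were negative. Both sets come from 1 split of the tumour 1 values, so the tumour 1 counts and medians within and between them all describe the choice.

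**Figure D5:**
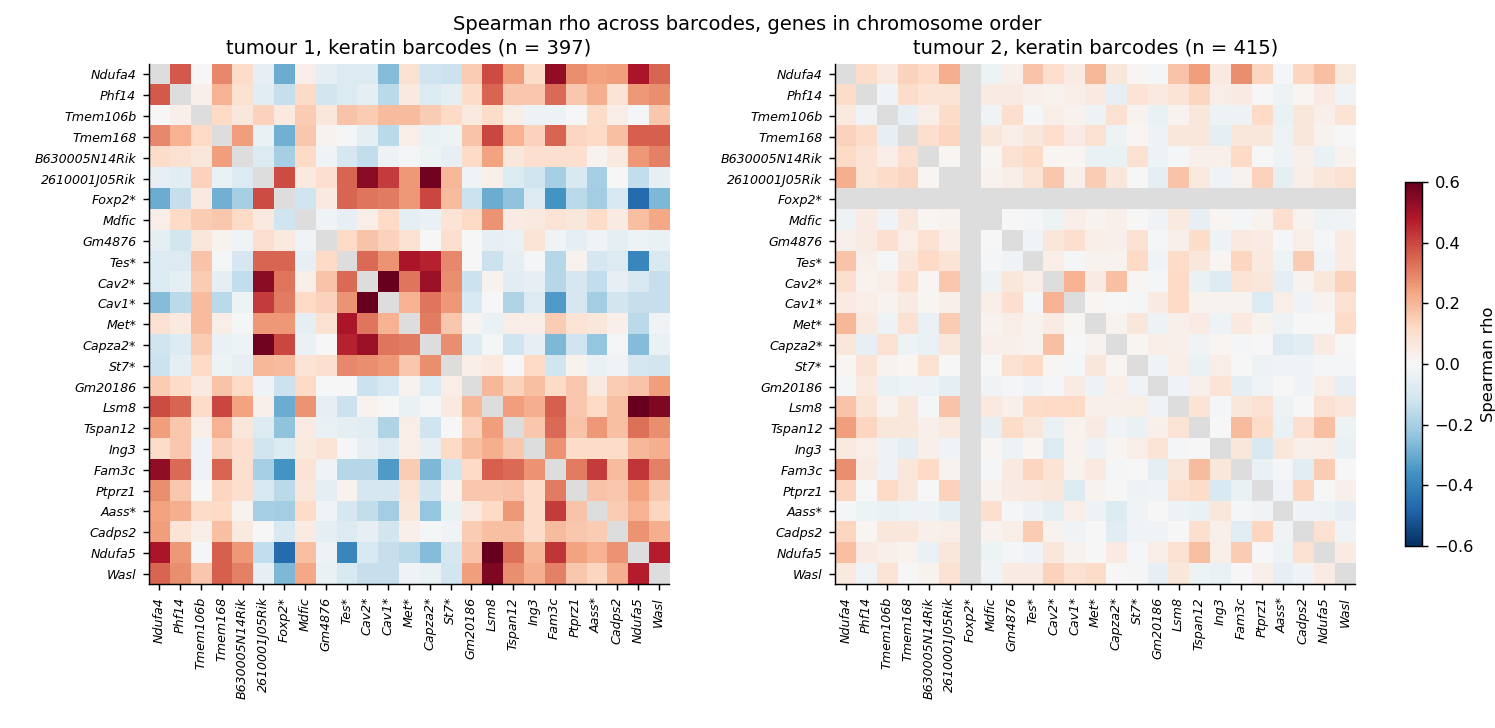
Spearman's rho across keratin barcodes for each pair of the 25 run genes in chromosome order, in tumour 1 (left, 397 barcodes) and tumour 2 (right, 415 barcodes), with the 8 genes starred and grey where no rho could be computed. In tumour 1 the pairs among 2610001J05Rik, Foxp2, Tes, Cav2, Cav1, Met, Capza2 and St7 are positive (median 0.32). This set was drawn from these values, differs from the starred genes and leaves out Mdfic and Gm4876, which lie within its stretch. Its pairs with Ndufa5 are negative, and in tumour 2 rho is near 0.

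Across the 11 library-by-population sums with at least 50 barcodes, the genes whose log2 levels were most like those of Met were Ppp2cb (Pearson r 0.93), Hspa1b, Mfn1, Drap1, Fam3c and Ndufa5 (0.91 each), Fyttd1 and Wasl (0.89 each), and Comtd1 and R3hdm2 (0.88 each), among 8572 genes. The sums share libraries and rest much on tumour 1 keratin barcodes. Without that population r was 0.82 for Ppp2cb, 0.77 for Fam3c and Ndufa5 and 0.70 for Wasl. Of the chosen genes, Cav2 was nearest to Met at 0.84 and Capza2 farthest at 0.64, and without tumour 1 keratin barcodes these were 0.64 and -0.08.

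Other genes of the Met pathway were found both higher and lower in tumour 1. Of 30 listed, which include the ligand, its activating proteases and their inhibitors, adaptors and targets, 21 had at least 20 CPM in tumour 1 or tumour 2 keratin barcodes, and 3 were at least 2-fold higher in tumour 1 (9.07% of all genes were) and 4 lower (9.99% of all genes were), with a median log2 ratio of -0.19. The higher ones were Pik3ca, a catalytic subunit of PI3-kinase, Cblb, a ubiquitin ligase, and Plxnb2, a plexin. The lower ones were Hpn, a protease that activates the ligand, Spint2, an inhibitor of such proteases, Dusp6, a phosphatase of ERK, and the transcription factor Etv4. Against 5 months 3 of 21 were higher and 6 lower in tumour 1 (14.7% and 12.7% of all genes), and against 2 weeks 5 of 20 were higher and 4 lower (15.5% and 17.6% of all genes). Spint2 had 840 CPM at 2 weeks, 722 CPM at 5 months, 157 CPM in tumour 1 and 553 CPM in tumour 2, the lowest in the library with most Met. Dusp6 had 30.5, 92.1, 108 and 296 CPM in the same order and was highest in tumour 2. The ligand Hgf was near 0 in keratin barcodes, with at most 1.21 CPM, and in Ptprc barcodes it had 1.60 CPM at 5 months, 16.4 CPM in tumour 1 and 8.64 CPM in tumour 2. In barcodes of neither population Hgf had 3.70 CPM at 2 weeks, 1.16 CPM at 5 months, 14.7 CPM in tumour 1 and 1.87 CPM in tumour 2. Those of tumour 1 held 6775 CPM of fibroblast markers and 24336 CPM of leukocyte markers, and which cells gave the Hgf was not tested.

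The measured partners of the caveolins and of Capza2 were less than 2-fold apart between the tumours. Of 8 caveola genes other than Cav1 and Cav2, 6 were measured well enough in the tumours, and 0 of 6 were at least 2-fold apart between tumour 1 and tumour 2 (9.07% of all genes were higher and 9.99% lower). Among only 6 genes a count of 0 is near these shares. Against 5 months 4 of 6, namely Ptrf, Sdpr, Prkcdbp and Ehd2, were higher in tumour 1 (14.7% of all genes), and against 2 weeks 2 were higher and 2 lower (15.5% and 17.6% of all genes). Capza1, the other alpha subunit of actin capping protein expressed here, had 60.7 CPM at 2 weeks, 54.7 CPM at 5 months, 73.2 CPM in tumour 1 and 72.9 CPM in tumour 2. Its beta partner Capzb had 171, 148, 106 and 198 CPM in the same order. Neither was 2-fold apart in any comparison of keratin barcodes between libraries, whereas Capza2 was 10.1-fold apart between the tumours. Capza3, the third alpha subunit gene, had no UMI.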

How the data were processed

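The v2 reagents of the Chromium 3' system were used, per the labels' protocols. The submitters' processing notes name Cell Ranger and mm10 (GRCm38), without a version or settings. The authors deposited UMI counts per gene and barcode. The prefix of gene names was removed, and of the 28692 genes listed at 5 months those absent elsewhere (4.59% of that library's UMIs) were left out, so that all levels are over 27998 genes. All UMIs of the keratin barcodes totalled 5304954 at 2 weeks, 2139096 at 5 months, 6614697 in tumour 1 and 3866860 in tumour 2. Each population was summed per library and divided by its total, and log2 ratios add 1 CPM. Because barcodes are not replicates and each group but the tumours has 1 library, no test was run and no p-value is given. The genes and lists were chosen with earlier results of these data known.

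Positions came from GENCODE M21 for 27722 of the 27998 genes. Genes named in the text are the 8, all others between Foxp2 and Aass with at least 20 CPM in keratin barcodes of some library, the 10 most like Met across populations, the 10 closest to Met across barcodes of each tumour, and members of fixed lists (Met pathway, caveolae, actin capping). Run genes outside that rule were named after their values were seen. No doublet caller was run; 2, 47, 62 and 50 barcodes at 2 weeks, at 5 months, in tumour 1 and in tumour 2 held both at least 3 keratin UMIs and Ptprc. Alternatives changed the keratin and Ptprc limits, barcode filter, scaling, minimum level, added constant and correlation measure. Scripts (Python 3.11.15, numpy 2.4.6, scipy 1.17.1, pandas 2.3.3) were tested on simulated data. Thinning used seed 1.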

Additional observations from a re-analysis of the deposited data

How the results depend on the processing

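In keratin barcodes, the 8 genes stayed at least 2-fold higher in tumour 1 in 144 of 144 ratios over the other 3 libraries. These came from the 6 alternative barcode limits, filters and scalings that change keratin barcodes or their scale, with log2 ratios from 2.38 to 7.51. The alternatives use overlapping barcodes of the same libraries, and the genes were chosen by these differences, so the count describes the choice. With the main limits, Foxp2, St7 and Aass reached the minimum level only in tumour 1 and could pass only by being high there. Counts over libraries other than tumour 1 rest on few genes near 2-fold. Shares of all genes under the alternatives are not set beside the counts in this section, which show only how the calls moved. With a keratin limit of 10 UMIs, 0 genes were lower in tumour 2 than at 5 months (Met lost its call). With median-of-ratios scaling, 1 was higher in tumour 2 than at 5 months (Cav2 lost its call) and 1 was higher at 5 months than at 2 weeks. With no minimum level, 2 were lower in tumour 2 than at 5 months, 1 was higher at 5 months than at 2 weeks, and 4 were higher in keratin than in Ptprc barcodes at 5 months. The genes gained were Aass, with 9 UMIs in keratin barcodes at 5 months, and in the last count also Cav1, with 10. Dropping the minimum also changes how many genes are counted, so these counts cannot be compared with the main ones. Median-of-ratios scaling moved the median of all genes from -0.15 to 0.06 in tumour 1 over 2 weeks and from 0.24 to -0.06 in keratin over Ptprc barcodes of tumour 1.

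In Ptprc barcodes, a limit of 2 Ptprc UMIs left 1 gene higher in tumour 1 than in tumour 2 and 2 higher than at 5 months, and leaving out keratin-bearing barcodes left 0 and 1, Met and Cav1 falling under the 20 CPM minimum while Met stayed more than 2-fold higher in tumour 1 (7.95 CPM, against 2.60 CPM in tumour 2 and 2.13 CPM at 5 months). The log2 ratio of Tes over tumour 2 then became -0.10 and -0.34, and over 5 months -0.27 without keratin-bearing barcodes. The mean log2 ratio of both tumours rests on tumour 1. Leaving out either tumour gave -0.34 to 4.69 for Met over 2 weeks, -1.18 to 3.85 for Met over 5 months, and -0.46 to 4.14 for Foxp2 over 2 weeks, the lower value in each case without tumour 1. The median rho of the 28 pairs in tumour 1 was 0.10 after thinning, and the run on chromosome 6 reached from Ndufa4 to Wasl under each of the 3 alternatives tried, with a running median at Met of 3.32 to 3.81. The barcodes with Epcam and the thinned counts for the run pairs were chosen after seeing the data. No paired analysis was possible because no result comes from a test and the groups share only replicate number 1. With 1 library per time point and 2 tumours that differ, differences between mice, captures and stages cannot be told apart.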

Other observations

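Medians over 9 neighbouring genes in keratin barcodes also picked out stretches away from Met. In tumour 1 over tumour 2, the highest window away from Met was on chromosome 14, from Ppp3cb to Vcl, with a median log2 ratio of 2.36. It ranked 18 of 5555. In tumour 1 over 2 weeks, the next was on chromosome X, from Morc4 to Capn6, at 3.16. That window holds Acsl4, which was also among the 10 genes closest to Met across tumour 1 barcodes. In tumour 2 over 2 weeks, the highest window was on chromosome 11, at 3.86, and held the chemokine genes Ccl3, Ccl4, Ccl5 and Ccl6, which are expressed by leukocytes. In keratin barcodes, 4 of 8 leukocyte markers were above 20 CPM in tumour 2 and 1 at 2 weeks. Tyrobp had 121 CPM in tumour 2 and 0 at 2 weeks, Lyz2 had 53.5 CPM in tumour 2 and 0.377 CPM at 2 weeks, and Cd52 had 51.7 CPM in tumour 2 and 0.566 CPM at 2 weeks. The sum of the 8 was 370 CPM in tumour 2 and 519 CPM at 2 weeks, of which Cd74 alone gave 116 and 516 CPM. The part of leukocyte RNA was not tested. At 5 months over 2 weeks, the highest window was on chromosome 5, at 5.11, and held the casein genes Csn1s1, Csn2, Csn1s2a, Csn1s2b and Csn3, which are milk protein genes. These windows were picked from all windows for their values, so no test is attached to them.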
